A study of Mus musculus with 7 samples.

Results

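The genes described here are 10 members of the Wnt and BMP signalling pathways, out of 20839 genes listed in at least 1 of 7 droplet single-cell RNA libraries of mouse thymic epithelium. They are the ligands Wnt4, Wnt10a, Bmp4 and Bmp7, the extracellular Wnt inhibitors Kremen2, Sfrp1 and Dkk3, and the target genes Axin2, Id1 and Id3. They were chosen by name, with earlier results of these data known. Each is described in cells without a Ptprc UMI, by 4 gates on other genes and by library along a time course after anti-RANKL antibody. Each of the 7 libraries came from 3 pooled thymi sorted for EpCAM-positive, CD45-negative cells, and together they held 8453 cells, of which 8220 had no Ptprc UMI.

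All mice were C57BL/6. The Aire trace library came from animals of 6 weeks that carried Aire-CreERT2 and R26-CAG-Stopfl-zsGreen, in which cells with active Aire are labelled with ZsGreen by Cre, after tamoxifen given as 2 mg on alternate days over 10 days. The isotype controls received 100 µg of isotype antibody 3 times in 1 week, and were collected 2 weeks later at 4 weeks of age (week 2 control) and 10 weeks later at 12 weeks of age (week 10 control). The anti-RANKL libraries received 100 µg of antibody against RANKL, the cytokine that drives maturation of medullary epithelium, also 3 times in 1 week. They were collected at week 2 (age 4 weeks), week 4 (age 6 weeks), week 6 (age 8 weeks) and week 10 (age 12 weeks). Animals were pooled within a library and each week has 1 anti-RANKL library, so the spread between animals at a week is unknown, and week and age of the animals cannot be told apart within the anti-RANKL series.

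Total UMIs were 15549812 in the Aire trace, and of the controls the earlier had 22197691 and the later 13304728. After anti-RANKL they were 15089673 at week 2, 7563528 at week 4, 3857876 at week 6 and 11443865 at week 10. The median depth of a cell ran from 4299.5 UMIs at anti-RANKL week 6 to 16809 UMIs in the week 2 control, so the share of cells with a UMI of a gene is a measure that depends on the library. Levels are therefore given per 10000 UMIs of the cell, either as UMIs per 10000 or as the natural log of 1 plus that value. The log is the deposited unit and is called ln here. A mean of ln can still depend on depth where counts are sparse. Between libraries 50 cell barcodes recurred, and no pair of libraries shared more than 7.

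A pair of libraries stood apart in the share of cells with Xist, a gene of the X chromosome. Xist was found in 42.5% of cells of the Aire trace and in 41.0% of cells of anti-RANKL week 10, but in 96.8% to 99.2% of cells of the other 5 libraries. Ddx3y had a UMI in 282 of 1318 cells of the Aire trace, or 21.4%, and was not listed in the other files. Eif2s3y, Kdm5d and Uty, also on the Y chromosome, were listed for the Aire trace, and Kdm5d for the week 2 control too. None of these genes was listed for anti-RANKL week 10. The differences of the 10 members between gates, and the counts of members called, were also computed without both libraries low in Xist. That choice was made after the data were seen, and the calls that it ended are named. The time course was not, and its last point is one of the 2.

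Wnt ligands are secreted lipid-modified proteins that act through Frizzled receptors and LRP co-receptors to stabilise beta-catenin, and Sfrp, Dkk and Kremen proteins work outside the cell or at its surface to limit that signal. BMP ligands bind serine and threonine kinase receptors that phosphorylate SMAD proteins, and the Id genes are among the classic targets of those SMADs. In the thymus both pathways take part in forming and maintaining epithelium, with Wnt4 and Bmp4 known as inducers of the epithelial regulator Foxn1.

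The gates used no member gene. The Ccl21a gate (ln above 4, the chemokine of medullary cells) held 3451 cells, the Aire gate (ln above 1.5) 1769 cells, the Trpm5 gate (above 0, a channel of tuft cells) 545 cells and the cortical gate (at least 2 of Psmb11, Ackr4 and Prss16 above 0) 1029 cells. A further 2222 cells passed none of the 4 gates, 5233 passed exactly 1 and 765 cells, or 9.31%, passed several. Most of that overlap lay between the Ccl21a and the cortical gate, which shared 438 cells. The fewest cells in any gate of any library were the 22 of the Aire gate at anti-RANKL week 4.

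Marker genes that the gates did not use separated the gates in part. Mean Krt5, a basal keratin of medullary cells, was ln 2.72 in the Ccl21a gate, against 1.70 in the cortical, 0.914 in the Trpm5 and 0.704 in the Aire gate, so the cortical gate, 438 of whose 1029 cells also passed the Ccl21a gate, was not free of it. A list of 6 other cortical genes, led by Ctsl, summed to between 64.7 and 125 UMIs per 10000 in the cortical gate of the 7 libraries, against 34.2 to 56.0 in the Ccl21a, 17.1 to 57.0 in the Aire and 5.99 to 24.7 in the Trpm5 gate. Mean Fezf2, a regulator of mature medullary cells, was ln 1.73 in the Aire gate and no higher than 0.810 in the others. A list of 6 tuft cell genes summed to between 8.37 and 21.5 UMIs per 10000 in the Trpm5 gate of the 7 libraries, against 1.09 to 2.78 over all cells.

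Near the thresholds the members did not step evenly, as a description with no test. From cells with Ccl21a at ln 3.5 to 4 (151 cells) to those at 4 to 4.5 (222 cells), mean Sfrp1 went from ln 0.620 to 0.942 and Id1 from 0.452 to 0.666, while Id3 was 0.965 and 1.01. Across the Aire threshold, from ln 1 to 1.5 (583 cells) to ln 1.5 to 2 (624 cells), Id1 went from ln 0.305 to 0.139 and Wnt10a from 0.332 to 0.381. From cells with exactly 1 of the 3 cortical genes (2527 cells) to those with exactly 2 (850 cells), Wnt4 went from ln 0.512 to 0.848 and Bmp4 from 0.0231 to 0.0477.

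Comparing the gates asks which epithelial cells carry the ligands, the inhibitors and the target genes. Cells of the Ccl21a gate were high in the BMP targets Id1 and Id3, in Bmp7 and in the Wnt inhibitors Sfrp1 and Kremen2. Wnt4 was high in the Ccl21a and cortical gates and low in the Aire and Trpm5 gates, and Bmp4 was highest in the cortical gate. Wnt10a was highest in the Aire gate, but its calls there ended on counts thinned to 2000 UMIs per cell. Each library gave 1 mean of ln per gate, and gates were compared within libraries by limma. Adjusted p-values cover the 14532 genes that passed the filter on low values, which all 10 members did. Such means can depend on depth, and the Aire gate had the deepest median of the gates in every library. Dkk3 in the Ccl21a gate had nearly the same mean ln at anti-RANKL week 6 and in the week 10 control (0.0517 and 0.0518). Its UMIs per 10000 there were 0.124 and 0.0816. Counts were also thinned to 2000 UMIs per cell without the cells below that depth, once with gates and Ptprc filter drawn again on the thinned counts (gates redrawn) and once with every cell left in its gate (gates kept). The second was chosen after the first had been seen. Redrawing took the cortical gate from 161 to 41 cells in the Aire trace and from 96 to 17 in the week 2 control.

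Between the Ccl21a and the Aire gate, 7 of 10 members were higher in the Ccl21a gate, against 20.1% of all genes tested, and 2 of 10 were lower, against 26.5%. The median difference of the members was ln 0.143, beside −0.00215 over all genes. Against the cortical gate, 5 members were higher in the Ccl21a gate (3.14% of all genes) and 1 was lower (7.03%), and the median differences were ln 0.0575 and −0.00735. Against the Trpm5 gate, 8 members were higher in the Ccl21a gate (13.5% of all genes) and 0 were lower (22.8%), with median differences of ln 0.154 and −0.00667.

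Between the cortical and the Aire gate, 5 members were higher in the cortical gate, against 25.5% of all genes, and 1 was lower, against 21.6%. Between the cortical and the Trpm5 gate, 6 members were higher in the cortical gate (17.0% of all genes) and 0 were lower (15.9%). The Aire and Trpm5 gates differed in the fewest members, with 2 higher in the Aire gate (18.6% of all genes) and 1 lower (22.3%), shares near those of all genes. The 6 comparisons share gates and libraries, so their counts are not independent of each other. The members were chosen with earlier results of these data known, and the part of that choice in the counts was not tested.

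**Figure D1:**
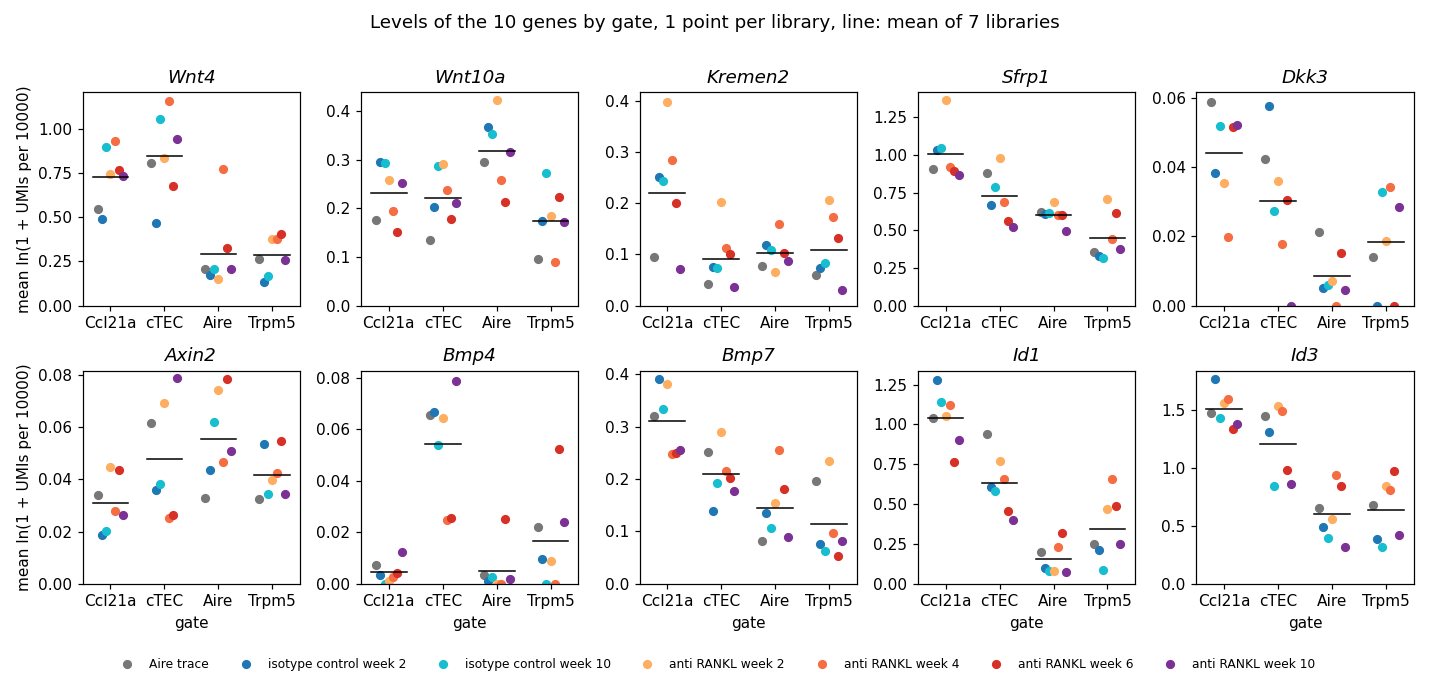
Mean level of each of the 10 genes, as ln(1 + UMIs per 10000), by gate, with 1 point per library and a line at the mean of the 7 libraries. Id1 and Id3 sit highest in the Ccl21a gate, Wnt4 in the cortical and Ccl21a gates, Wnt10a in the Aire gate and Bmp4 in the cortical gate.

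Wnt4, a ligand that signals to beta-catenin in several epithelia, had library means in the Ccl21a gate from ln 0.487 to 0.930, with a median of 0.746. In the cortical gate they ran from ln 0.466 to 1.16 with a median of 0.835, and in the Aire gate from 0.152 to 0.770 with a median of 0.206. The week 2 control was low in the Ccl21a and cortical gates, and the highest Aire gate value was that of anti-RANKL week 4, with 22 cells, which alone made the ranges of the Aire and Ccl21a gates overlap. Wnt4 was higher by ln 0.438 in the Ccl21a than in the Aire gate (SE 0.0616, adjusted p = 1.80e-06, higher in 7 of 7 libraries) and by ln 0.556 in the cortical than in the Aire gate (adjusted p = 4.89e-08, 7 of 7). Against the Trpm5 gate, where means ran from ln 0.134 to 0.406, the differences were ln 0.446 for the Ccl21a and 0.564 for the cortical gate, each in 7 of 7 libraries (adjusted p = 2.13e-06 and 5.98e-08). The order of Wnt4 was cortical, Ccl21a, Aire and Trpm5, in which the first pair and the last pair did not differ beyond their spread (adjusted p = 0.277 and 0.933). The last pair did pass in cells of exactly 1 gate (0.0475). Thinned with gates redrawn, Wnt4 was lower in the Ccl21a than in the cortical gate by ln 0.395 (adjusted p = 0.00127), and with gates kept by ln 0.123 (adjusted p = 0.309).

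Wnt10a, a ligand best known from skin appendages and teeth, had means in the Aire gate from ln 0.212 to 0.422, with a median of 0.316. In the Ccl21a gate they ran from ln 0.152 to 0.295, in the cortical gate from 0.134 to 0.291 and in the Trpm5 gate from 0.0905 to 0.273. These ranges overlapped, but within each of the 7 libraries the Aire gate was above both the Ccl21a and the cortical gate. The Aire gate exceeded the Ccl21a gate by ln 0.0856 (SE 0.0229, adjusted p = 0.0031), the cortical gate by ln 0.0971 (adjusted p = 0.00108) and the Trpm5 gate by ln 0.144 (adjusted p = 1.31e-05, higher in 6 of 7 libraries). All 3 calls ended on thinned counts, at adjusted p of 0.958, 0.465 and 0.292 with gates redrawn and 0.343, 0.354 and 0.118 with gates kept, where the Aire gate was still the higher by ln 0.0431, 0.0419 and 0.0672. The order was Aire, Ccl21a, cortical and Trpm5, in which Ccl21a and cortical did not differ (adjusted p = 0.829), nor cortical and Trpm5 (0.123). The latter passed without anti-RANKL week 6 (0.0243) and with Trpm5 above 1 (6.79e-06). The difference of ln 0.0584 between the Ccl21a and Trpm5 gates (adjusted p = 0.0471, higher in 6 of 7) missed the threshold when any 1 library other than anti-RANKL week 6 was left out, with adjusted p up to 0.159 without the week 2 control, without both low-Xist libraries (0.256) and thinned with gates kept (0.673). In all it ended in 13 of 22 other settings.

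Bmp4, a ligand made in the early thymus and its mesenchyme, was rare. The cortical gate held 19 UMIs of Bmp4 in the Aire trace, 9 and 7 in the controls, and 33, 6, 3 and 9 in the anti-RANKL libraries in order of week. The Ccl21a gate, with 3451 cells over all libraries against 1029 in the cortical gate, held 15, 1, 0, 2, 2, 1 and 3 in the same order. Cortical gate means ran from ln 0.0246 to 0.0789 with a median of 0.0643, above the range of the Ccl21a gate, 0 to 0.0123. Bmp4 was higher in the cortical than in the Ccl21a gate by ln 0.0498 (SE 0.00738, adjusted p = 3.46e-05, 7 of 7 libraries), the Aire gate by ln 0.0493 (adjusted p = 4.87e-06, 7 of 7) and the Trpm5 gate by ln 0.0375 (adjusted p = 0.000246, 6 of 7). The order was cortical, Trpm5, Aire and Ccl21a, in which the last 3 did not differ from each other, and the cortical gate passed against none of the Ccl21a, Aire and Trpm5 gates when thinned with gates redrawn (adjusted p = 0.3, 0.146 and 0.463) but against each with gates kept (0.00505, 0.00154 and 0.0249). In the week 10 control no cell of 208 in the Ccl21a gate had a Bmp4 UMI, where 3 such cells would be 1.44%, a limit on cells with a UMI and not on cells that express the gene.

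Bmp7, a ligand widely made in epithelia, had Ccl21a gate means from ln 0.247 to 0.390 with a median of 0.321. In the cortical gate they ran from ln 0.139 to 0.291, in the Aire gate from 0.0826 to 0.256 and in the Trpm5 gate from 0.0538 to 0.234. Within a library the Aire gate exceeded the Ccl21a gate at anti-RANKL week 4 alone, with its 22 cells. Bmp7 was higher in the Ccl21a than in the Aire gate by ln 0.167 (SE 0.0275, adjusted p = 1.64e-05, 6 of 7 libraries), the cortical gate by ln 0.101 (adjusted p = 0.0158, 7 of 7) and the Trpm5 gate by ln 0.196 (adjusted p = 2.60e-06, 7 of 7). The order was Ccl21a, cortical, Aire and Trpm5, and cortical and Aire did not differ (adjusted p = 0.0509), nor Aire and Trpm5 (0.419), while the cortical gate was above the Trpm5 gate by ln 0.095 (adjusted p = 0.00873). The Ccl21a against cortical call ended without the week 2 control (adjusted p = 0.123), without the week 10 control (0.068), without both low-Xist libraries (0.0595) and on thinned counts (0.592 with gates redrawn, 0.0936 with gates kept), and in all in 7 of 22 other settings. The cortical against Trpm5 call ended in the controls and Aire trace alone (adjusted p = 0.106), with Ccl21a at most ln 4 in the cortical gate (0.148) and thinned with gates kept (0.513). The cortical against Aire difference passed without the week 2 control (adjusted p = 0.0337), anti-RANKL week 4 (0.0116) or anti-RANKL week 6 (0.0432) and with log2 of the mean plus 0.1 (0.0284) or 0.01 (0.0351). The Aire against Trpm5 difference passed with Aire above 0 (0.0116) or Trpm5 above 1 (0.0307).

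Kremen2, a transmembrane receptor for Dkk proteins that removes LRP6 from the surface, had its widest range of library means, as a difference in ln, in the Ccl21a gate. Its means there were ln 0.0948 in the Aire trace and 0.251 and 0.243 in the controls, then 0.398, 0.285, 0.201 and 0.0709 after anti-RANKL in order of week. The Aire trace and anti-RANKL week 10 were low and anti-RANKL week 2 was high. The other gates stayed between ln 0.0297 and 0.206, and their ranges overlapped that of the Ccl21a gate. Within libraries the Ccl21a gate was higher than the Aire gate by ln 0.118 (SE 0.0247, adjusted p = 0.000316, 6 of 7 libraries), the cortical gate by ln 0.129 (adjusted p = 0.000746, 7 of 7) and the Trpm5 gate by ln 0.112 (adjusted p = 0.000754, 7 of 7). The order was Ccl21a, Trpm5, Aire and cortical, and the last 3 did not differ from each other (adjusted p from 0.658 to 0.876) in the reported fit. The cortical gate did pass below the Aire gate with Aire above 0 (adjusted p = 0.0104), with Ccl21a at most ln 4 in the cortical gate (0.0484) and in cells passing exactly 1 gate (0.0234). It passed below the Trpm5 gate with Ccl21a at most ln 4 (0.0429). Thinned with gates redrawn, the adjusted p was 0.381, 0.107 and 0.0986, but with gates kept all 3 calls held, at ln 0.0662, 0.0850 and 0.0786 (adjusted p = 0.00827, 0.00571 and 0.00279). In cells passing exactly 1 gate the Aire gate was above the Trpm5 gate by ln 0.0755 (adjusted p = 0.0321).

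Sfrp1, a secreted protein that binds Wnt ligands, was found in 57.8% to 90.9% of Ccl21a gate cells. Its means there ran from ln 0.866 at anti-RANKL week 10 to 1.36 at anti-RANKL week 2, with a median of 0.916. In the cortical gate they ran from ln 0.522 to 0.980, in the Aire gate from 0.496 to 0.688 and in the Trpm5 gate from 0.314 to 0.705. The Ccl21a gate lay wholly above the Aire and Trpm5 gates. Sfrp1 was higher in the Ccl21a gate by ln 0.399 than in the Aire gate (SE 0.0508, adjusted p = 3.78e-07), by 0.278 than in the cortical gate (adjusted p = 0.000431) and by 0.556 than in the Trpm5 gate (adjusted p = 2.42e-09), each in 7 of 7 libraries. The order was Ccl21a, cortical, Aire and Trpm5, with cortical and Aire not apart (ln 0.122, adjusted p = 0.0513) and Aire above Trpm5 by ln 0.156 (adjusted p = 0.0152, 5 of 7). The cortical against Aire difference changed sign in cells passing exactly 1 gate, to −0.133 (adjusted p = 0.0312), and passed in its reported direction on thinned counts (ln 0.191, adjusted p = 0.0268 with gates redrawn and 0.0325 with gates kept) and without anti-RANKL week 6 (adjusted p = 0.0127). In all it passed in that direction in 7 of 22 other settings, among them an exact sign-flip test over libraries (unadjusted p = 0.0469). With the cortical gate limited to cells with Ccl21a at or below ln 4, its excess of 0.278 over the Trpm5 gate (adjusted p = 0.000105) became 0.0378 (adjusted p = 0.67). Thinning with gates redrawn ended the Ccl21a against cortical call (adjusted p = 0.193), which held with gates kept (0.0127). The Aire against Trpm5 call ended both ways (0.131 and 0.66), and it also missed the threshold without the week 2 control (0.0659), the week 10 control (0.0628) or both low-Xist libraries (0.0901). In all it ended in 7 of 22 other settings, among them the sign-flip test (unadjusted p = 0.0625).

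Dkk3, a divergent relative of the Dkk inhibitors whose effect on Wnt signalling depends on the cell, was found in 1.69% to 7.66% of Ccl21a gate cells. Its Ccl21a gate means ran from ln 0.0197 to 0.0587, with a median of 0.0517, and its Aire gate means from 0 to 0.0214. Only anti-RANKL week 4 and the Aire trace brought these ranges to overlap. Dkk3 was higher in the Ccl21a than in the Aire gate by ln 0.0355 (SE 0.00766, adjusted p = 0.000421, 7 of 7 libraries) and than in the Trpm5 gate by ln 0.0257 (adjusted p = 0.00995, 6 of 7), a call that ended without both low-Xist libraries (adjusted p = 0.0743) and with log2 of the mean plus 0.1 (0.0552) or 0.01 (0.0727). The order was Ccl21a, cortical, Trpm5 and Aire, with no neighbours apart (adjusted p from 0.259 to 0.321), though on thinned counts the Ccl21a gate was above the cortical gate by ln 0.0303 with gates redrawn (adjusted p = 0.000702) and 0.0203 with gates kept (0.0466). The cortical gate passed above the Trpm5 gate in cells passing exactly 1 gate (0.0498) and with Trpm5 above 1 (0.0156). The cortical gate was above the Aire gate by ln 0.0218 (adjusted p = 0.0218, 6 of 7), a call that ended without the week 2 control (0.0873) or anti-RANKL week 2 (0.0651). In all it ended in 6 of 22 other settings, among them thinned with gates kept (0.305), and it changed sign with gates redrawn, to −0.00274.

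Axin2, a scaffold of the beta-catenin destruction complex and a general target of Wnt signalling, was low in every gate. Its means ran from ln 0.0329 to 0.0784 in the Aire gate, with a median of 0.0508, and from 0.0188 to 0.0446 in the Ccl21a gate, with a median of 0.0277. In the cortical gate they ran from ln 0.0251 to 0.0786 and in the Trpm5 gate from 0.0323 to 0.0545, so all 4 ranges overlapped. Axin2 was lower in the Ccl21a than in the Aire gate by ln 0.0247 (SE 0.00858, adjusted p = 0.0202, lower in 6 of 7 libraries), and it passed in no other pair. That call ended without the week 10 control (adjusted p = 0.0749), without anti-RANKL week 2 (0.0501), in the controls and Aire trace alone (0.163), in cells passing exactly 1 gate (0.0633) and on thinned counts (0.735 with gates redrawn, 0.49 with gates kept). The order was Aire, cortical, Trpm5 and Ccl21a, with no neighbours apart (adjusted p from 0.342 to 0.635). Cells with a Ptprc UMI, given for comparison and not as a blank, had Axin2 in 4.17% to 16.7%, against 4.55% to 12.9% of Aire gate cells. After thinning with gates kept these were 0.472% to 2.18% against 1.07% to 3.07%, so the ranges overlapped.

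Id1, a dominant-negative partner of basic helix-loop-helix factors and a direct target of BMP signalling, had Ccl21a gate means from ln 0.767 to 1.28, with a median of 1.05. In the Aire gate they ran from ln 0.0754 to 0.316 with a median of 0.102, in the Trpm5 gate from 0.0859 to 0.658 and in the cortical gate from 0.398 to 0.943. The Ccl21a gate lay wholly above the Aire and Trpm5 gates, and the cortical gate wholly above the Aire gate. Id1 was higher in the Ccl21a than in the Aire gate by ln 0.887 (SE 0.0746, adjusted p = 3.44e-10), the cortical gate by ln 0.412 (adjusted p = 0.000387) and the Trpm5 gate by ln 0.699 (adjusted p = 3.51e-08), each in 7 of 7 libraries, of which the cortical call ended with log2 of the mean plus 0.01 (adjusted p = 0.0783). The cortical gate was above the Aire gate by ln 0.475 (adjusted p = 9.75e-06, 7 of 7) and the Trpm5 gate by ln 0.287 (adjusted p = 0.00377, 6 of 7), the latter ended without both low-Xist libraries (0.0756) and when thinned with gates redrawn (0.143) but not with gates kept (0.014). The order was Ccl21a, cortical, Trpm5 and Aire, and the last step of ln 0.188 (adjusted p = 0.0452, 7 of 7) ended without anti-RANKL week 2 (0.155), week 4 (0.147) or week 10 (0.0838), without both low-Xist libraries (0.0757) and on thinned counts (0.57 with gates redrawn, 0.122 with gates kept), and in all in 14 of 22 other settings.

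Id3, a further Id gene with the same mode of action, had Ccl21a gate means from ln 1.34 to 1.77, with a median of 1.47. In the cortical gate they ran from ln 0.844 to 1.53 with a median of 1.31, in the Trpm5 gate from 0.314 to 0.975 and in the Aire gate from 0.318 to 0.939. As with Id1, the Ccl21a gate lay wholly above the Aire and Trpm5 gates, and it overlapped the cortical gate. Id3 was higher in the Ccl21a than in the Aire gate by ln 0.904 (SE 0.0878, adjusted p = 4.31e-09) and than in the Trpm5 gate by ln 0.872 (adjusted p = 1.29e-08), each in 7 of 7 libraries. The cortical gate was above the Aire gate by ln 0.608 (adjusted p = 2.99e-06) and above the Trpm5 gate by ln 0.576 (adjusted p = 1.02e-05), also in 7 of 7. The order was Ccl21a, cortical, Trpm5 and Aire, and the last pair did not differ (adjusted p = 0.795). The step from Ccl21a to cortical, ln 0.296 (adjusted p = 0.0287, 7 of 7), ended without the week 2 control (0.071), the week 10 control (0.157) or anti-RANKL week 10 (0.143), without both low-Xist libraries (0.164) and thinned with gates redrawn (0.126) but not with gates kept (0.0162), and in all in 11 of 22 other settings.

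As shares of cells, Id1 was found in 47.3% to 78.8% of Ccl21a gate cells and in 10.0% to 25.4% of Aire gate cells, although the Aire gate cells were deeper. Thinned to 2000 UMIs per cell, with gates kept, these shares were 32.0% to 44.5% and 2.04% to 9.58%. In cells with a Ptprc UMI, with median depths from 3097.5 to 13124.5 UMIs, Id1 was found in 11.8% to 37.7%, and in 1.77% to 22.4% after thinning. The Aire gate shares overlapped theirs and the Ccl21a gate shares were above them. These cells were not a blank, as Epcam was found in 70.8% to 87.5% and Krt8 in 79.2% to 100% of them by library. Id3 was found in 70.1% to 92.5% of Ccl21a gate cells, against 34.2% to 72.7% of Ptprc-positive cells. Wnt4 was found in 52.7% to 68.7% of Ccl21a gate cells and in 14.7% to 54.5% of Ptprc-positive cells, the highest of these from the 11 such cells of anti-RANKL week 6.

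Kremen2 was found in 7.72% to 44.6% of Ccl21a gate cells and in 2.42% to 12.7% after thinning with gates kept, against 0% to 12.5% and 0% to 3.95% of Ptprc-positive cells. Dkk3 was found in 0% to 3.03% of Ptprc-positive cells, which overlapped its range in the Ccl21a gate. Sfrp1 was found in 23.7% to 58.3% of Ptprc-positive cells, and Bmp7 in 20.7% to 53.8% of Ccl21a gate cells against 6.06% to 27.3% of Ptprc-positive cells. For Wnt10a the Aire gate share of 22.0% to 54.8% stood against 4.17% to 29.2%. Bmp4 was found in 2.16% to 8.70% of cortical gate cells and in 0% to 5.26% of Ptprc-positive cells, where it had 3 UMIs in all.

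The BMP targets Id1 and Id3 were found together in somewhat more cells of the Ccl21a gate than the product of their shares would give, as a description with no test. Both were found in 560 cells of the Aire trace against 516 from that product, in 125 and 120 against 117 and 106 in the controls, and in 446, 503, 130 and 123 against 425, 451, 111 and 103 after anti-RANKL. The share of cells with both genes was lowest at anti-RANKL week 6, with 38.9%, and highest in the week 2 control, with 78.1%. Cells with Id3 were deeper in 6 of 7 libraries, for example 9251.5 against 6553 UMIs at the median in the Aire trace, and the part of depth in the shared detection was not tested. The exception was the week 2 control, with 14251 UMIs in cells with Id3 and 16400 in cells without.

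Beyond the 10 members, 121 other genes of both pathways were listed for the same fit, of which 53 of 77 Wnt genes and 33 of 44 BMP genes passed the filter. In the Ccl21a against the Aire gate, 14 Wnt genes were higher and 14 lower, while 18 BMP genes were higher and 5 lower, beside 20.1% and 26.5% of all genes. All 5 of the other BMP target genes tested, 4 of 8 BMP receptors and 3 of 6 SMAD genes were higher and 0 of each were lower. Of 12 extracellular BMP inhibitors 6 were higher and 3 lower, and both other BMP ligands tested were lower. Of the other extracellular Wnt inhibitors, 0 of 6 were higher and 5 lower, unlike Sfrp1, Kremen2 and Dkk3. The largest differences belonged to Id2, a further Id gene, at ln 0.848 (SE 0.0645, adjusted p = 6.31e-11), and to Wls, the carrier that takes Wnt ligands to the surface, at ln 0.453 (SE 0.0527, adjusted p = 9.10e-08), each higher in 7 of 7 libraries. They were followed by Fstl1 at ln 0.389 and Fst at ln 0.349, both secreted binders of BMP-family ligands, and by the receptor Fzd2 at ln 0.234.

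Against the cortical gate, 3 Wnt genes were higher and 3 lower and 2 BMP genes higher and 2 lower in the Ccl21a gate, where few of all genes passed (3.14% and 7.03%). Id2 was higher by ln 0.443 (adjusted p = 2.81e-05) and the cyclin gene Ccnd1 by ln 0.180 (adjusted p = 0.000209), and the BMP inhibitor Nbl1 was lower by ln 0.150 (adjusted p = 0.000364). Against the Trpm5 gate, 6 Wnt genes were higher and 7 lower in the Ccl21a gate, and 16 BMP genes were higher and 2 lower (13.5% and 22.8% of all genes). Id2 was higher there by ln 0.495 and Wls by ln 0.390, while the adhesion receptor gene Cd44, a Wnt target in some epithelia, was lower by ln 0.338 (adjusted p = 7.62e-09).

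The cortical gate had 19 Wnt genes higher and 14 lower than the Aire gate, and 14 BMP genes higher and 5 lower (25.5% and 21.6% of all genes). Wls led with ln 0.543 (adjusted p = 5.52e-09), followed by Id2 at ln 0.405, the BMP-binding Twsg1 at ln 0.324 and Nbl1 at ln 0.316 (adjusted p = 6.68e-10). Against the Trpm5 gate the cortical gate had 11 Wnt genes higher and 5 lower and 13 BMP genes higher and 2 lower (17.0% and 15.9% of all genes), with Wls higher by ln 0.481, Cd44 lower by ln 0.309, Nbl1 higher by ln 0.285 and the BMP target Hey1 higher by ln 0.239. Between the Aire and Trpm5 gates 12 Wnt genes were higher and 13 lower, and 5 BMP genes were higher and 6 lower (18.6% and 22.3% of all genes), with Cd44 lower in the Aire gate by ln 0.398 (adjusted p = 3.47e-10) and Id2 by ln 0.353.

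The genes most like each member were sought by the correlation of means over 28 points, 4 gates in each of 7 libraries, which share libraries and depth. Id3 was most like Krt7 (r = 0.959) and Csrp1 (r = 0.946), and Id1 most like Mpzl2 (r = 0.947), followed by Wbp5 (r = 0.941) and Krt5 (r = 0.936). Bmp7 was most like BC034090 (r = 0.926) and Ifngr1 (r = 0.917), and Kremen2 most like Pde1b (r = 0.921) and Mybpc1 (r = 0.896). Bmp4 was most like Gsta4 (r = 0.911), a gene it resembled through few UMIs, and Wnt4 most like Mtss1l (r = 0.902). Sfrp1 was most like Adm (r = 0.898) and the basal keratin gene Krt17 (r = 0.895), and Wnt10a most like Vim (r = 0.844). For Dkk3 the highest value was 0.795 (Serping1) and for Axin2 0.667 (Lypd6b), both of which rest on sparse counts.

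The time course asks how the same genes stood while Aire-positive cells were lost and returned after RANKL blockade. At week 4 after anti-RANKL, over all cells without Ptprc, Id1 stood at 3.29 UMIs per 10000 against a control mean of 0.999 ± 0.0261 (SD, n = 2) and Id3 at 7.29 against 2.49 ± 0.227. Wnt4, Kremen2, Dkk3 and Bmp4 were also above both controls at that week, and Wnt10a was below them. The Bmp4 call ended with only cells without a Dcn UMI kept (1.13-fold of the control mean). By week 10 the level of Kremen2 alone among the 10 was outside the controls, on the low side. That call ended with T cell genes at 0 or from summed UMIs. Within the Ccl21a gate none of the members named here for week 4 was outside the controls at that week in the reported means. Dkk3 was below them from summed UMIs and with T cell genes at 0, but 1.32-fold of the control mean without Dcn-positive cells. On thinned counts with gates redrawn Wnt10a was below them (0.390 against 0.610 and 0.656). Bmp4 was above them in that setting, with both controls at 0. Kremen2 had the widest course of the members with more than 20 UMIs in that gate of every library. With 1 library per week no test was run. A gene is called outside the controls where it was at least 1.5-fold above the higher or below the lower of them.

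The make-up of the libraries moved along with these levels. The Ccl21a gate held 14.2% and 16.7% of cells in the controls, in order of week, then 57.8%, 65.1%, 46.5% and 21.0% at weeks 2, 4, 6 and 10 after anti-RANKL. The Aire gate held 40.4% and 44.0% of control cells, then 5.24%, 1.52%, 15.2% and 38.7%. The cortical gate held 8.50% and 7.62% of control cells and 19.9%, 16.0%, 16.0% and 8.02% after anti-RANKL. The part of these shares in the levels over all cells was not tested, and the levels within the Ccl21a gate stand beside them for that reason.

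The counts along the time course are likewise of members chosen with earlier results of these data known. Over all cells, 7 of 10 members were above the controls at week 2, against 12.7% of all genes, and 0 were below, against 18.0%. At week 4, 6 were above (15.1% of all genes) and 1 was below (25.3%), and at week 6, 5 were above (13.8%) and 1 was below (25.5%). At week 10, 0 were above (2.35% of all genes) and 1 was below (2.58%), where the number outside was 3 with the week 10 control alone and 2 with the week 2 control alone.

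Within the Ccl21a gate, 2 members, Kremen2 and Axin2, were above the controls at week 2, against 7.89% of all genes, and 0 were below, against 8.54%. At week 4 only Axin2 of the 10 was above (8.68% of all genes) and 0 were below (12.1%), and with either control alone 3 were outside. From summed UMIs Axin2 was no longer outside at week 4 and Dkk3 was below (0.0327 against 0.0524 in the lower control), as it was with T cell genes at 0. Without Dcn-positive cells Dkk3 was instead 1.32-fold of the control mean at week 4. At week 2 it was 1.83-fold in that setting, above the controls by the rule (0.0498 against 0.0331 in the higher). At week 6, 3 were above (Dkk3, Axin2 and Bmp4, against 11.4% of all genes) and 2 were below (Wnt10a and Id1, against 15.0%). Of these, Dkk3 and Wnt10a were no longer outside from summed UMIs, nor were Bmp4 and Id1 without Dcn-positive cells, and Bmp4 rested on 1 UMI. At week 10, 2 were above (Axin2 from 7 UMIs and Bmp4 from 3, against 11.0%) and 1 was below (Kremen2, against 8.77%). For Bmp4 the controls had 1 and 0 UMIs, and from summed UMIs Axin2 was no longer outside. Without the week 10 control 6 were outside, while at week 2 it was 4 without that control.

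**Figure D2:**
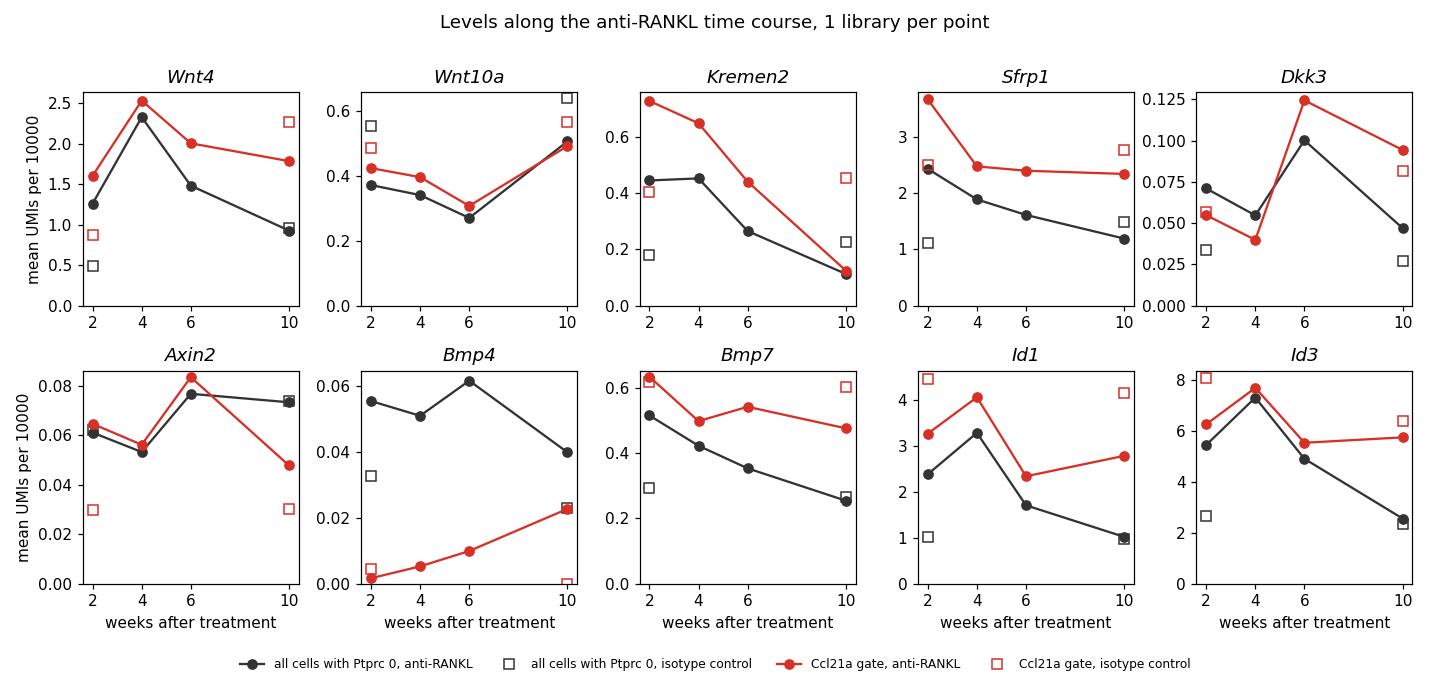
Mean UMIs per 10000 of each of the 10 genes against weeks after treatment, over all cells without Ptprc (black) and in the Ccl21a gate (red), with circles for the anti-RANKL libraries and open squares for the isotype controls at weeks 2 and 10. Over all cells Id1 and Id3 peak at week 4, and in the Ccl21a gate Kremen2 goes from 0.727 at week 2 to 0.124 at week 10.

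Of the ligands, Wnt4 over all cells was 0.488 and 0.957 UMIs per 10000 in the week 2 and week 10 controls, and 1.26, 2.33, 1.48 and 0.926 at weeks 2, 4, 6 and 10 after anti-RANKL. It stood 3.22-fold above the control mean at week 4 and 2.05-fold at week 6, and at week 2 it was less than 1.5-fold above the higher control. The week 6 call ended with T cell genes at 0 and on thinned counts with gates redrawn. Inside the Ccl21a gate the controls themselves were 0.873 and 2.26, wide apart, and the 4 anti-RANKL values of 1.60, 2.53, 2.00 and 1.78 lay between them or near the higher.

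Wnt10a over all cells was 0.552 and 0.639 UMIs per 10000 in the controls and 0.372, 0.341, 0.270 and 0.506 after anti-RANKL, lowest at week 6 with 0.454-fold of the control mean. From summed UMIs weeks 4 and 6 were level over all cells, at 0.350 and 0.348. The share of Aire gate cells was lowest at week 4, and its part in the level of Wnt10a was not tested. Wnt10a within the Ccl21a gate was 0.484 and 0.565 in the controls and 0.424, 0.396, 0.307 and 0.492 after anti-RANKL, again lowest at week 6, where 52 UMIs were counted. From summed UMIs that week was no longer outside by the rule (0.677-fold of the control mean). On thinned counts with gates redrawn, weeks 4 and 10 were also below the controls in this gate (0.390 and 0.346 against 0.610 and 0.656).

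Bmp7 over all cells was 0.293 and 0.266 UMIs per 10000 in the controls and 0.515, 0.422, 0.353 and 0.254 after anti-RANKL, which at week 2 was 1.84-fold of the control mean. Ccl21a gate values were 0.618 and 0.603 in the controls and 0.633, 0.498, 0.541 and 0.476 after anti-RANKL, none of them outside the controls by the 1.5-fold rule.

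Bmp4 over all cells had 40 and 17 UMIs in the controls and 64, 30, 18 and 26 after anti-RANKL, or 0.0325 and 0.0228 UMIs per 10000 against 0.0554, 0.0509, 0.0616 and 0.0399. Its levels were above both controls at weeks 2, 4 and 6, of which week 2 ended on thinned counts with gates redrawn. Cells that passed none of the gates carried much of it, with 0.0566 and 0.0418 in the controls and 0.151, 0.172, 0.141 and 0.0501 after anti-RANKL. A list of 7 fibroblast genes, of which 5 to 7 were detected, moved with it in the same ungated cells, with a summed level of 3.31 and 5.13 in the controls and 14.1, 16.0, 12.6 and 4.07 after anti-RANKL. The most abundant gene of that list was Dcn in every library, at 13.2, 15.3 and 12.2 at weeks 2, 4 and 6, while Col1a1 was between 0 and 0.199 in the 7 libraries. With only cells without a Dcn UMI kept, a choice made after Dcn was seen, Bmp4 over all cells was 0.909-fold of the control mean at week 2, 1.13-fold at week 4, 0.620-fold at week 6 and 1.06-fold at week 10, so it was no longer above the controls by the rule.

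That filter kept 753 and 865 cells of the controls and 507, 674, 235 and 843 after anti-RANKL, and it also removed gate cells, with 287 of 684 left in the Ccl21a gate at anti-RANKL week 2 and 67 of 160 in the week 2 control, so it does not single out fibroblasts. Without the Dcn-positive cells, Wnt4, Kremen2, Sfrp1, Dkk3, Bmp7, Id1 and Id3 stayed above the control mean at weeks 2, 4 and 6. Id1 was then 3.17-fold of the control mean at week 2, 5.04-fold at week 4 and 2.59-fold at week 6, and Wnt4 2.57-fold, 4.45-fold and 3.10-fold. Kremen2 was 2.80-fold at week 2 and 2.86-fold at week 4, and Id3 was 2.05-fold, 3.29-fold and 2.08-fold at weeks 2, 4 and 6. Dkk3 was 6.33-fold at week 6, in a library where 235 cells were then kept.

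Kremen2, of the inhibitors, was over all cells 0.179 and 0.228 UMIs per 10000 in the controls and 0.445, 0.452, 0.265 and 0.113 after anti-RANKL, 2.19-fold of the control mean at week 2, 2.23-fold at week 4 and 0.554-fold at week 10. The week 10 value was 0.565-fold with T cell genes at 0 and 0.602-fold from summed UMIs, neither outside by the rule. In the Ccl21a gate it was 0.404 and 0.454 in the controls and 0.727, 0.648, 0.441 and 0.124 after anti-RANKL, so that by the rule week 2 was above the controls and week 10 below. Week 4 was higher than both controls, by less than 1.5-fold of the higher, and week 6 was between them. The week 2 call ended in cells passing exactly 1 gate (0.745 against 0.517 in the higher control) and on thinned counts with gates redrawn (0.693 against 0.469). Pooled over the cells of the gate, with 95% Poisson intervals for counting error only, the week 2 library had 0.736 (0.679 to 0.797) from 609 UMIs and the week 10 library 0.125 (0.0784 to 0.189) from 22 UMIs. The controls had 0.447 (0.368 to 0.539) and 0.488 (0.393 to 0.598), and neither interval reached that of week 2 or week 10. The Aire trace, the other library with low Xist, had 0.172 (0.146 to 0.201), also below both controls, and the part of the animals' make-up in this was not tested.

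Sfrp1 over all cells was 1.12 and 1.48 UMIs per 10000 in the controls and 2.43, 1.89, 1.61 and 1.19 after anti-RANKL, above both controls by the rule at week 2 alone, with 1.87-fold of their mean. Ccl21a gate values of Sfrp1 were 2.51 and 2.76 in the controls and 3.67, 2.48, 2.40 and 2.34 after anti-RANKL. The week 2 value was the highest of the 4 there too, at 1.39-fold of the control mean, and the rest were just below both controls. On thinned counts with gates redrawn, week 2 was above both controls by the rule (3.61 against 2.28 and 2.32).

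Dkk3 over all cells was 0.0338 and 0.0272 UMIs per 10000 in the controls and 0.0710, 0.0547, 0.1001 and 0.0469 after anti-RANKL, highest at week 6 with 3.28-fold of the control mean. Within the Ccl21a gate it rested on 13 and 14 UMIs in the controls and 38, 16, 15 and 14 after anti-RANKL, with means of 0.0569 and 0.0816 against 0.0548, 0.0398, 0.124 and 0.0943. From summed UMIs week 6 was 0.0952 against 0.0524 and 0.0742, no longer outside by the rule.

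Axin2, of the targets, did not move over all cells by the rule, with 0.0623 and 0.0740 UMIs per 10000 in the controls and 0.0611, 0.0532, 0.0767 and 0.0733 after anti-RANKL. For the Ccl21a gate the controls had 6 and 8 UMIs and the anti-RANKL libraries 55, 25, 13 and 7. By the rule all 4 weeks were above the controls there, at 2.15-fold, 1.87-fold, 2.78-fold and 1.59-fold of the control mean. From summed UMIs the controls stood at 0.0242 (95% interval 0.00888 to 0.0526) and 0.0424 (0.0183 to 0.0836), and weeks 2, 4, 6 and 10 at 0.0665 (0.0501 to 0.0865), 0.0510 (0.0330 to 0.0753), 0.0825 (0.0439 to 0.141) and 0.0398 (0.0160 to 0.0820). All 4 intervals overlapped both controls, and weeks 4 and 10 were then not above them by the rule. The week 10 call also ended in cells passing exactly 1 gate and without Dcn-positive cells. Without Dcn-positive cells weeks 2, 4, 6 and 10 were nonetheless 5.05-fold, 4.64-fold, 4.80-fold and 2.68-fold of the control mean. The lower control was then 0.

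Id1 over all cells was 1.02 and 0.980 UMIs per 10000 in the controls and 2.39, 3.29, 1.71 and 1.02 after anti-RANKL, so weeks 2, 4 and 6 were above both controls and week 10 was level with them. The Ccl21a gate differed from this, with 4.48 and 4.16 in the controls and 3.28, 4.07, 2.35 and 2.79 after anti-RANKL. These 4 means were below both controls, but from summed UMIs week 4 stood at 3.91, between the controls at 4.52 and 3.75, and without Dcn-positive cells it was 1.03-fold of the control mean. By the rule only week 6 was outside, at 0.543-fold of the control mean, which ended without Dcn-positive cells (0.632-fold). In cells passing exactly 1 gate, week 10 was below the controls as well (3.04 against 4.57 and 4.65). The pooled interval of week 6, 2.14 to 2.63, lay below those of the week 2 control (4.25 to 4.79) and the week 10 control (3.48 to 4.03). The Aire trace had 3.35 in this gate.

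Id3 over all cells was 2.65 and 2.33 UMIs per 10000 in the controls and 5.44, 7.29, 4.90 and 2.56 after anti-RANKL, which was 2.18-fold, 2.93-fold, 1.96-fold and 1.03-fold of the control mean. Ccl21a gate values of Id3 were 8.07 and 6.38 in the controls and 6.25, 7.68, 5.53 and 5.74 after anti-RANKL, with no week outside by the rule. In these means neither Id1 nor Id3 was above both controls inside the gate at any week. In ungated cells Id3 was 2.07 and 2.24 in the controls and 4.51, 7.32, 5.46 and 2.72 after anti-RANKL, and Id1 was 0.612 and 0.509 against 1.22, 2.14, 1.48 and 1.02. In the Trpm5 gate Id3 was 1.17 and 0.678 in the controls and 3.23, 3.88, 3.96 and 1.19 after anti-RANKL.

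Markers of other cells were present at low levels in the cells without Ptprc. A T cell list, 7 of its 8 genes detected and Ptprc at 0 by selection, summed to between 0.214 and 0.434 UMIs per 10000, with Lck the most abundant. A myeloid list, led by Lyz2, summed to 4.33 and 4.22 in the controls and 2.86, 0.386, 0.884 and 5.31 after anti-RANKL. Genes of red cells reached 4.17 over all cells and 17.4 in ungated cells at anti-RANKL week 4, with Hbb-bs at 10.2 from only 10 of 337 ungated cells, against 0.683 or less over all cells of every other library. The part of these cells in the levels of the members was not tested.

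In the Aire trace, a UMI of ZsGreen (listed as GFP) was found in 89.8% of Aire gate cells, 70.0% of Trpm5, 50.9% of cortical and 37.3% of Ccl21a gate cells (326 of 875), and in 64.6% of ungated cells. Cells with a Ptprc UMI had it in 63.8% (44 of 69), at a median depth of 12350 UMIs, and thinned to 2000 UMIs per cell they had it in 28.9% against 11.3% of the Ccl21a gate. The share in the Ccl21a gate was thus below that of cells with a Ptprc UMI. Those cells were not a blank, as 81.2% of the 69 had an Epcam UMI and 87.0% a Krt8 UMI. Whether a single UMI marks labelling in the Ccl21a gate was not tested, and the levels of the members with and without ZsGreen are not compared.

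All 10 members are protein-coding genes of the GENCODE annotation on mm10 (GRCm38), the build of the authors' alignment. The ligand genes lie at chr4:137277489-137299726 (Wnt4, plus strand), chr1:74791516-74804179 (Wnt10a, plus), chr14:46383520-46390669 (Bmp4, minus) and chr2:172868012-172940321 (Bmp7, minus). The inhibitor genes lie at chr17:23741197-23745833 (Kremen2, minus), chr8:23411502-23449632 (Sfrp1, plus) and chr7:112116017-112159057 (Dkk3, minus). The target genes lie at chr11:108920349-108950783 (Axin2, plus), chr2:152736251-152737410 (Id1, plus) and chr4:136143497-136145755 (Id3, plus), so Wnt4 with Id3 and Bmp7 with Id1 share a chromosome.

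RefSeq promoter windows of 300 bases on GRCm38.p6 were at hand for 5 of the 10 members, Wnt4, Kremen2, Axin2, Bmp4 and Id3, and were searched on both strands for short motifs of the factors of each pathway. CTTTGA, a motif of TCF type, was in none of the 5 windows and in 16.0% of all 32851 promoters of that length. GGCGCC, a motif of SMAD type, had 2 matches in Wnt4 and none in the other 4 windows, and was in 11.9% of all promoters. These matches are descriptions of letters and say nothing of binding.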

How the data were processed

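The authors aligned reads with Cell Ranger 2.2.0 to mm10 and filtered and normalised cells in Seurat 2.3.4; the text names no step against doublets and none was added here. Their deposited unit is a natural log, ln(1 + x), where x is a gene's count scaled to 10000 UMIs per cell, and whole UMIs were recovered from it within a tolerance of 0.001. Members and gene lists were chosen with earlier results of these data known.

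Gate means per library, from at least 10 cells, were compared in limma 3.58.1 (R 4.3.3) with a trend and the library as a block. P-values were adjusted by Benjamini-Hochberg for each pair of gates over the 14532 genes found in at least 1% of cells, with a threshold of 0.05. Intervals are exact (Poisson, and Clopper-Pearson for shares of cells) and cover counting error only. Cells of a library are not replicates. Of the other pathway genes, those named are the called ones with the largest absolute difference, at most 5 per pair of gates, in order of that difference; for likeness, the highest Pearson correlations are named. Python 3.11.15 was used with numpy 2.4.6, scipy 1.17.1, pandas 2.3.3 and matplotlib 3.10.9.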

Additional observations from a re-analysis of the deposited data

How the results depend on the processing

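The 60 member differences between gates were tried under 22 other settings. Of the differences, 38 passed in the reported fit. Of these, 16 kept their direction and their side of the threshold in every setting. Among the settings was an exact sign-flip test over libraries, which was judged on unadjusted p-values. Thinning to 2000 UMIs, which left out cells below that depth and drew the gates and the Ptprc filter again, ended 17 calls, turned the sign of 1 more and added 3. With thinned cells kept in their gates, a setting chosen after seeing the data, 10 calls ended and 2 were added. Below, thinned means gates drawn again unless gates kept is named. The cause of the changes below was not tested.

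The count of members called for Ccl21a against cortical was 3 instead of 6 with log2 of the mean plus 0.01 and 3 on thinned cells. For Aire against Trpm5 it was 1 instead of 3 with no library block, 0 on thinned cells, 0 with gates kept and 1 without the Aire trace and anti-RANKL week 10, the last 2 settings chosen after seeing the data. Leaving out 1 library at a time, the counts ran from 8 to 9 (Ccl21a against Aire), 4 to 6 (Ccl21a against cortical), 7 to 8 (Ccl21a against Trpm5), 5 to 8 (cortical against Aire), 6 to 7 (cortical against Trpm5) and 2 to 3 (Aire against Trpm5).

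Members outside the controls over all cells at week 10 were 0 with T cell genes at 0, 0 from summed UMIs and 3 on thinned cells. In the Ccl21a gate they were 1 at week 2 in cells passing exactly 1 gate, 2 at week 4 with T cell genes at 0 and 3 on thinned cells, 3 at week 6 without Dcn-positive cells (chosen after seeing the data) and 3 from summed UMIs, and 5 at week 10 on thinned cells. With 1 control left out they were 8, 8, 6 and 2 to 3 over all cells at weeks 2, 4, 6 and 10, and 3 to 4, 3, 5 to 6 and 3 to 6 in the Ccl21a gate.

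Signs of differences between gates changed as follows, in ln except where log2 is named. Neither value passed, with these exceptions. Dkk3 on thinned cells, cortical against Aire (−0.00274), passed as reported, and Sfrp1 and Kremen2 in cells passing exactly 1 gate passed there. Bmp4, Ccl21a against Aire, was 0.000363 with T cell genes at 0, 0.00116 in controls and trace only, 0.000934 in cells passing exactly 1 gate and 0.14 (log2) with 0.01 added. Wnt10a, Ccl21a against cortical, was −0.000621 without both low-Xist libraries, where Kremen2, cortical against Aire, was 0.00171 and Axin2, cortical against Trpm5, was −0.00599. Axin2, Ccl21a against Trpm5, was 0.00417 on thinned cells. With gates kept, Wnt10a, Ccl21a against cortical, was −0.00114, Axin2, cortical against Aire, was 0.00151 and, for Aire against Trpm5, Wnt4 was −0.00337, Kremen2 0.0124 and Id3 0.00611. Sfrp1, cortical against Aire, was −0.119 with Ccl21a at most 4 in the cortical gate and −0.133 in cells passing exactly 1 gate. Kremen2, cortical against Trpm5, was 0.0482 with Trpm5 above 1.

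Of Aire against Trpm5, Wnt4 was −0.22 and −0.28 (log2) with 0.1 and 0.01 added. Kremen2 was 0.0463 with Aire above 0, 0.0293 in controls and trace only, 0.0755 in cells passing exactly 1 gate, 0.0263 on thinned cells and 0.0593 with Trpm5 above 1. Dkk3 was 0.00572 on thinned cells and 0.00253 with Trpm5 above 1, and Bmp7 was −0.00333 in controls and trace only. Id3 was 0.0134 with T cell genes at 0, 0.138 with Aire above 0, 0.0530 in controls and trace only, 0.207 in cells passing exactly 1 gate, 0.141 on thinned cells and 0.126 with Trpm5 above 1. Leaving out 1 library at a time, Bmp4 ran from −0.00227 to 0.00293 (Ccl21a against Aire), Wnt10a from −0.00184 to 0.0206 (Ccl21a against cortical), Axin2 from −0.000138 to 0.0119 (cortical against Trpm5) and, for Aire against Trpm5, Wnt4 from −0.0562 to 0.0468, Kremen2 from −0.0161 to 0.0167 and Id3 from −0.0589 to 0.00964. In the time course, directions against the control mean also turned without Dcn-positive cells, of which the wider turns are given. Over all cells Bmp4 was then 0.909-fold of that mean at week 2 and 0.620-fold at week 6. In the Ccl21a gate Bmp4 was 0.402-fold at week 4 (2.41-fold as reported) and 0 at week 6. Dkk3 in that gate was 1.83-fold at week 2 and 1.32-fold at week 4 (0.791-fold and 0.575-fold as reported).

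Median depth from 4299.5 to 16809 UMIs limits detection of the rarer members in single cells.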
